A study of Mus musculus with 11 samples.

Results

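The distributions of MacroH2A2 and of newly made H3.3 were compared in mouse embryonic stem (ES) cells, using 2 of the 11 ChIP-Seq libraries of a study of histone variant turnover. The libraries were chosen by antibody and time, one ChIP with an antibody to MacroH2A2 and the other with an antibody to the HA tag on H3.3. The H3.3 library came from KH2 ES cells carrying an inducible HA-H3.3 gene, 6 hours after doxycycline (Dox) was added at 2 µg/ml. The MacroH2A2 library measured the protein with an antibody in ES cells that the labels give as the parental KH2 line without treatment, and its label says that 2 replicates were combined. Because the sources used here differ on the Dox state of the anti-MacroH2A2 libraries, only the antibody and the cell type were used. KH2 cells are 129 X C57bl/6 ES cells in which the Dox-dependent activator is made from the ROSA26 locus, so that the tagged histone is made in cells that also hold their own untagged H3.3. Cells were grown on feeder fibroblasts, which were depleted by a short plating on gelatin before induction.

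Each antibody had 1 library, so no test between conditions was possible. The intervals given are exact 95% intervals (Clopper-Pearson) of the split of the reads between the libraries, and they cover counting error only. Antibody, cell line, Dox, and the age of the histone measured (all MacroH2A2 against H3.3 made within 6 hours) changed together between the libraries and cannot be told apart. For comparison, values are set beside the anti-HA library of HA-Macro ES cells without Dox and beside HA-H3.3 at 3 hours of Dox. The paper reports a trace of promoter signal without Dox, which it calls a likely result of leaky HA-MacroH2A2. The no-Dox library may thus hold some macroH2A signal. It was made with another antibody than the MacroH2A2 library and in another line than the H3.3 library, so it is not a matched background for either.

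H3.3 is an H3 variant that is deposited outside of DNA replication, and is known for its presence at active promoters, enhancers and the bodies of transcribed genes, where nucleosomes are replaced often. MacroH2A2 is an H2A variant with a large globular macro domain attached to the histone fold, and macroH2A proteins are best known from the inactive X chromosome and other silent chromatin. A nucleosome holds both H2A and H3, so the same nucleosome can carry both variants, and a ChIP of either does not tell whether it does.

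The MacroH2A2 library held 8545703 mapped intervals and the H3.3 library 10722793. Both hold intervals of 400 bp, 97.4% and 97.7% of them on chromosomes 1 to 19. H3.3 was thinned at random to the 8322155 intervals that MacroH2A2 had on those chromosomes, and every value below is a number of interval midpoints at that depth unless stated. Repeated intervals made up 0.464% of the MacroH2A2 library, 0.694% of the H3.3 library and 5.71% of the no-Dox library. The libraries shared 1.10% of the distinct first bases of MacroH2A2 and 0.875% of those of H3.3. Outside genes, a 1 kb window held on average 3.08 MacroH2A2, 2.52 H3.3 and 3.15 no-Dox midpoints, so most single windows held few reads.

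Because no RNA was used here, the labelled cell type could be checked only on the ChIP levels themselves. Promoters of 10 ES cell genes (Pou5f1, Nanog, Sox2, Zfp42, Esrrb, Klf4, Tbx3, Dppa5a, Tdgf1 and Lin28a) held 294 H3.3 midpoints in sum, from 12 to 46 each, and those of 10 fibroblast genes held 77, from 2 to 19 each. The same promoters held 107 MacroH2A2 midpoints for the ES cell genes, from 2 to 23 each, and 81 for the fibroblast genes, from 1 to 20 each. H3.3 thus separated the lists in sum while MacroH2A2 separated them less. In the bodies of the 4 ES cell genes long enough to be measured, H3.3 held 2432 midpoints and MacroH2A2 887, and in those of 7 fibroblast genes H3.3 held 596 and MacroH2A2 937. H3.3 was above MacroH2A2 in 4 of these 4 ES cell gene bodies and in 0 of the 7 fibroblast gene bodies.

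Both variants peaked just downstream of the transcription start site (TSS), but MacroH2A2 formed a narrow downstream peak where H3.3 formed a wide zone on both sides. Over the TSSs of 33686 genes, the level within 600 bp of the TSS was 0.77 above the level from 4 to 2 kb upstream for MacroH2A2 and 1.29 above it for H3.3, on the log2 scale. The no-Dox library gave 0.24 on the same scale and H3.3 at 3 hours gave 1.00. The MacroH2A2 maximum was 1.21 at 210 bp downstream, and its width at 50% of its height above the flank, on the linear scale, was 680 bp, from 120 bp upstream to 560 bp downstream. H3.3 reached 1.56 at 230 bp downstream with a width of 1360 bp, from 640 bp upstream to 720 bp downstream. At 3 hours H3.3 was narrower, with a width of 1040 bp, from 360 bp upstream to 680 bp downstream. The variants therefore differed most on the upstream side.

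At 500 bp upstream of the TSS, MacroH2A2 was 0.18 above its flanking level and H3.3 was 1.16 above its own. H3.3 at 3 hours stood between them, 0.70 above its own flanking level. At 500 bp downstream the values were 0.82 for MacroH2A2 and 1.25 for H3.3, much nearer to each other. H3.3 had a shoulder upstream of the TSS, with 1.23 at 300 bp upstream and 1.22 at 100 bp upstream. MacroH2A2 rose across the same stretch, from 0.36 to 0.77. The ratio of midpoints in the first 1 kb downstream to those in the 1 kb upstream was 1.44 for MacroH2A2, 1.12 for H3.3, 1.22 for H3.3 at 3 hours and 1.13 without Dox. The intervals were extended to 400 bp from each read and carry no strand, so positions are resolved no better than the length of the intervals, and the no-Dox library holds intervals of 150 bp, so the widths of the profiles cannot be compared with its own.

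The upstream difference was also measured away from neighbouring start sites, a choice made after seeing the data. At 16594 protein-coding genes with no other TSS within 2 kb, MacroH2A2 was 0.04 above its flanking level at 500 bp upstream and H3.3 was 1.32 above its own. H3.3 at 3 hours was 0.78 above its own. The downstream to upstream ratio there was 1.71 for MacroH2A2 and 1.17 for H3.3. At the 1205 TSSs of lincRNA genes, which make long noncoding RNAs, both variants were about even on either side. The ratio there was 0.975 for MacroH2A2 and 1.06 for H3.3. At 3940 pseudogenes the enrichment within 600 bp was 0.21 for MacroH2A2, 0.09 for H3.3 and 0.08 without Dox.

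**Figure D1:**
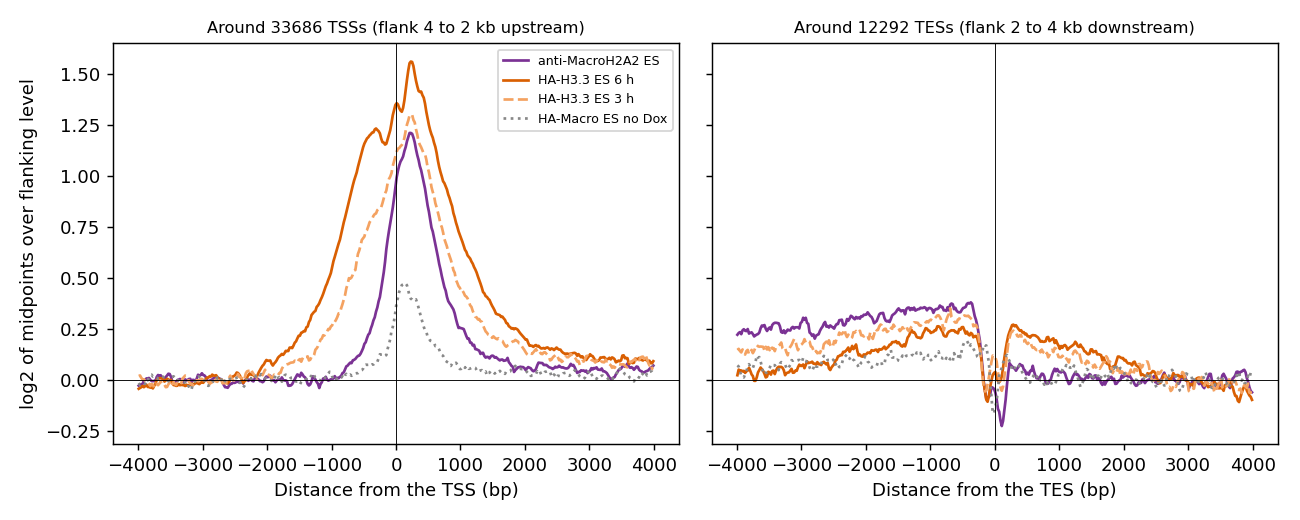
Mean midpoint level (log2 over the flanking level, 100 bp running mean) by distance in bp from 33686 TSSs (left) and 12292 transcription end sites, TES (right), 1 line per library. MacroH2A2 peaks at 1.21 downstream of the TSS and is near its flanking level 500 bp upstream, where H3.3 at 6 hours stands at 1.16.

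Promoters with more H3.3 also held more MacroH2A2, but MacroH2A2 rose less. Promoters are the bases within 600 bp of the TSS on either side of 20806 protein-coding genes, ranked here by H3.3 at 3 hours, which measures the same tagged protein as H3.3 at 6 hours, and no ranking by a macroH2A library was made here. From the lowest to the highest decile, H3.3 at 6 hours rose from 2.01 ± 2.76 to 49.5 ± 17.0 midpoints (SD over promoters). MacroH2A2 rose from 2.53 ± 2.69 to 14.9 ± 6.12, and the no-Dox library from 3.97 ± 2.28 to 6.51 ± 2.84. H3.3 over MacroH2A2 thus went from 0.796 in the first decile to 1.43 in the fifth and 3.31 in the tenth. Between the fifth and the tenth decile MacroH2A2 went from 9.98 to 14.9, while H3.3 went from 14.2 to 49.5. The MacroH2A2 peak was downstream-weighted in the upper deciles, with a downstream to upstream ratio of 1.09 in the first decile and 1.70 in the tenth, against 1.02 and 1.09 for H3.3.

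**Figure D2:**
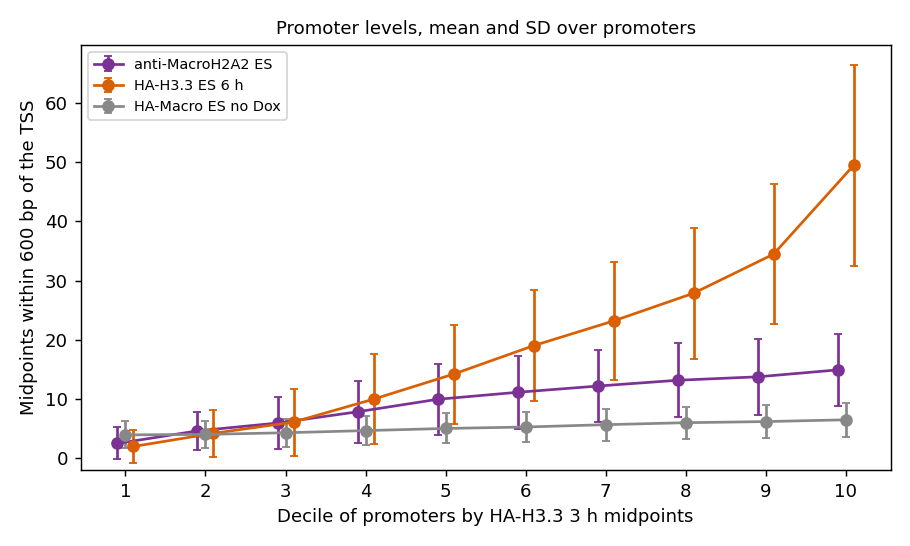
Mean midpoints within 600 bp of the TSS (points, with bars for the SD over promoters) by decile of HA-H3.3 at 3 hours, for the MacroH2A2, H3.3 6 hour and no-Dox libraries. H3.3 reaches 49.5 in the tenth decile, where MacroH2A2 stands at 14.9 and the no-Dox library at 6.51.

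Base composition went along with both variants. Across the 20806 promoters, log2 MacroH2A2 had a Pearson r of 0.69 with the GC content and of 0.62 with log2 H3.3, and log2 H3.3 had 0.70 with GC content. The no-Dox library gave 0.32 with GC content. Promoters rich in CpG dinucleotides (an observed to expected CpG ratio of at least 0.6, 9254 promoters) held 13.0 ± 6.27 MacroH2A2 and 29.3 ± 16.0 H3.3 midpoints. Promoters with a ratio under 0.35, 7637 in number, held 5.51 ± 4.87 and 6.21 ± 8.98. Within the CpG-rich promoters alone the r of MacroH2A2 with H3.3 was 0.23, while that of MacroH2A2 with GC content was 0.55. These correlations are across promoters within single libraries, which share sequence composition and mappability.

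At CpG-rich promoters of like GC content, ranked by H3.3 at 3 hours, H3.3 at 6 hours varied more than MacroH2A2. The ranking uses the same tagged protein as H3.3 at 6 hours, so the spread of H3.3 is in part set by it. No ranking of these promoters by a macroH2A library was made. Among those of 60 to 65% GC, the tertile of promoters with the least H3.3 at 3 hours (891 promoters) held 20.2 ± 8.93 H3.3 and 14.3 ± 5.68 MacroH2A2 midpoints. The tertile with the most (891 promoters) held 46.03 ± 16.2 H3.3 and 14.9 ± 5.37 MacroH2A2. Among those of 50 to 55% GC the lowest and highest tertiles held 15.5 and 33.2 H3.3 midpoints, and 7.30 and 9.05 MacroH2A2 midpoints. MacroH2A2 moved more from one GC class to the next than between the tertiles by H3.3. The part of base composition in the MacroH2A2 level was not tested.

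Single promoters were then compared where the libraries together held at least 30 midpoints, which 9277 of the 20806 did. H3.3 was over 2-fold above MacroH2A2 (1 read added to each) at 5445 of them, or 58.7%, and MacroH2A2 over 2-fold above H3.3 at 189, or 2.04%. A promoter that is low in one library passes the minimum only through the other: 4989 promoters reached 30 on H3.3 alone and 176 on MacroH2A2 alone. The split also depends on the common total, since it became 1340 and 1417 when the log2 ratio was centred on its median over the promoters tested. With H3.3 at 3 hours in place of 6 hours it was 826 and 81. Both libraries were then thinned to the 6317120 intervals of the 3 hour library and the minimum stayed at 30, so depth changed along with time. The count higher in MacroH2A2 was 309 with 1000 bp on either side of the TSS and 1 with at least 60 midpoints in the libraries together. The number of promoters that passed is not given for these settings or for H3.3 at 3 hours, so these counts are not shares. The 189 promoters held 27.8 MacroH2A2 and 9.29 H3.3 midpoints on average, with 60% GC, and 31.8% of them were CpG-poor, against 6.26% of the 5445.

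The promoters at the H3.3 end of the ratio held few or no midpoints of the anti-MacroH2A2 library, which is part of how they were chosen. Gm16253 (chr3:96380907-96384586 in mm9) held 0 MacroH2A2, 77 H3.3 and 7 no-Dox midpoints, which put H3.3 at least 25.7-fold higher against a floor of 3 counts, where the exact interval, with the counting error of the 77, starts at 20.4. Cap1, a regulator of actin filaments (chr4:122536290-122563299), held 1 MacroH2A2 against 83 H3.3 midpoints, a ratio of 83 with an interval from 14.5 to 3317. Rps10, a protein of the small ribosomal subunit (chr17:27767367-27773574), held 1 against 60, a ratio of 60 (10.4 to 2409). The no-Dox library held 0 and 2 midpoints at these promoters. Cpt1c, a carnitine palmitoyltransferase of the brain (chr7:52214743-52230184), held 2 against 89, or 44.5 times as many (12.0 to 373). The 10 promoters at this end were chosen for high H3.3 at 6 hours and low MacroH2A2, and at 3 hours H3.3 was lower in all 10 at the same depth, with 17.1 midpoints at Gm16253, 30.3 at Cap1, 36.9 at Rps10 and 40.8 at Cpt1c. HA-Macro at 6 hours was not below the no-Dox library at any of the 10. It held 7 midpoints at Gm16253, 7 at Cap1, 8 at Rps10 and 10 at Cpt1c, against 7, 0, 2 and 6 without Dox.

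In the other promoters of this group MacroH2A2 was at 0. Gm17285 (chr3:88081022-88081376) had 55 H3.3 midpoints and Wdtc1 (chr4:132848374-132909396) had 40, at least 18.3-fold and 13.3-fold more than the floor (exact lower limits 14.4 and 10.3). Mylpf, a myosin light chain of fast muscle (chr7:134355122-134357812), Tmem211 (chr5:113655929-113668283) and Txndc12, a thioredoxin-like protein of the endoplasmic reticulum (chr4:108507206-108534732), had 37 each, at least 12.3-fold more (exact lower limit 9.54). At 2900060B14Rik (chr1:120355247-120355324) H3.3 had 33 midpoints. Among the 4989 promoters with at least 30 H3.3 midpoints, 179 or 3.59% held no more MacroH2A2 than the mean of 3.70 midpoints that 1.2 kb outside genes would hold. Their median H3.3 level was 38, against 40 in the other promoters of that level, and their median GC content was 51.6% against 60.4%.

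At the opposite end, 3 of the 10 promoters belonged to keratin-associated protein genes of 1 cluster. Krtap1-4, which encodes a keratin-associated protein of the hair shaft (chr11:99444376-99444968), held 34 MacroH2A2 against 3 H3.3 midpoints, a ratio of 11.3 (3.56 to 57.7), with 9 midpoints without Dox and 7 for HA-Macro at 6 hours. In the same cluster, Krtap1-3 (chr11:99451775-99452653) and Krtap4-16 (chr11:99711969-99712922) held 33 against 3 each, a ratio of 11 (3.45 to 56.1). Gm11570 (chr11:99846024-99847911), on the same stretch of chromosome, held 28 against 3. These 4 lie within a cluster of similar genes. Per the methods, reads that fit several copies were placed at 1 of them at random, so their levels may be partly shared.

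Outside the cluster, Plch2, a phospholipase C (chr4:154357225-154417263), held 41 MacroH2A2 against 5 H3.3 midpoints, a ratio of 8.2 (3.24 to 26.6). Ush1g, a scaffold protein of sensory hair cells (chr11:115176506-115183355), held 34 against 4, a ratio of 8.5 (3.03 to 32.97). Angpt4, an angiopoietin ligand (chr2:151736943-151771073), held 32 against 4, a ratio of 8 (2.84 to 31.1). These intervals all lie above 1, yet they are wide because the H3.3 side rests on a few reads. Krt72-ps (chr15:101606603-101616889) held 30 against 4, Uts2r, the urotensin receptor (chr11:121021585-121023287), 29 against 4, and 4933425O20Rik (chr2:130232214-130233635) 39 against 6 midpoints. All 10 promoters at this end were chosen for low H3.3 at 6 hours, and in all 10 H3.3 at 3 hours was higher at the same depth, from 5.27 midpoints at Krtap1-4 and Krtap1-3 to 17.1 at Ush1g, 19.8 at Angpt4 and 25.0 at Plch2. MacroH2A2 was above H3.3 at 3 hours in each as well, by less. HA-Macro at 6 hours held 7 to 19 midpoints at these promoters and was above the no-Dox library in 8 of the 10, and below it at Krtap1-4 and at Gm11570 (7 against 8).

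The promoters with the most of both variants were ranked by the smaller of the numbers. Clcn4-2, a chloride and proton exchanger (chr7:7235027-7252222), held 70 MacroH2A2 and 85 H3.3 midpoints, with 14 without Dox, and its log2 ratio of -0.28 had an interval from -0.76 to 0.19. It stood apart, since the next by the smaller number, 3110070M22Rik (chr13:120276068-120277190), held 39 and 80. Card10, a scaffold of NF-kB signalling (chr15:78605568-78633472), and Fam89a (chr8:127264157-127275709) held 36 and 53 each. Mgat3, a glycosyltransferase (chr15:80004151-80045949), held 36 and 44, with 74.8% GC in its promoter. Gng13, a G protein gamma subunit (chr17:25854116-25856351), held 35 and 47, Tmem189 (chr2:167468108-167515322) 35 and 51, A730013G03Rik (chr1:194659363-194660913) 34 and 47, Usp30, a deubiquitinase of mitochondria (chr5:114550342-114573515), 34 and 46, and 4933407C03Rik (chr8:119780919-119985403) 33 and 39. Except at 3110070M22Rik, the intervals of these log2 ratios include 0.

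In gene bodies both variants rose with the level that H3.3 had already reached at 3 hours, as did GC content, and within a class of GC content MacroH2A2 changed little beyond the lowest quintile of genes. Bodies were measured from 2 kb after the TSS to 2 kb before the transcription end site (TES) of 13157 protein-coding genes. Relative to windows outside genes, body density was 0.26 higher for MacroH2A2, 0.67 for H3.3, 0.44 for H3.3 at 3 hours and 0.10 without Dox, on the log2 scale. Bodies too were ranked only by H3.3 at 3 hours. Over all bodies in deciles, MacroH2A2 went from -0.36 in the lowest to 0.49 in the seventh and 1.27 in the tenth, and H3.3 from -0.53 to 1.12 and 2.30, while the GC content went from 40.5% to 45.0% and 51.3%. In bodies of 46 to 50% GC, the quintile with the least H3.3 at 3 hours (593 genes) had 0.48 for MacroH2A2 and 0.28 for H3.3. The quintile with the most (592 genes) had 0.73 for MacroH2A2 and 2.18 for H3.3. From the second to the last quintile MacroH2A2 moved only from 0.68 to 0.73, and in bodies of 42 to 46% GC only from 0.27 to 0.31, while H3.3 went from 0.77 to 2.18 and from 0.35 to 1.66.

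The MacroH2A2 level of bodies shifted from one GC class to the next. In the second quintile it was -0.03 at 38 to 42% GC, 0.27 at 42 to 46%, 0.68 at 46 to 50% and 1.26 at 50 to 54%. The no-Dox library gave -0.01, 0.03, 0.15 and 0.30 in the same bodies. HA-Macro at 6 hours of Dox, measured through the same tag as H3.3, went from 0.49 in the second to 0.80 in the last quintile of the 46 to 50% class, where the no-Dox library went from 0.15 to 0.26.

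**Figure D3:**
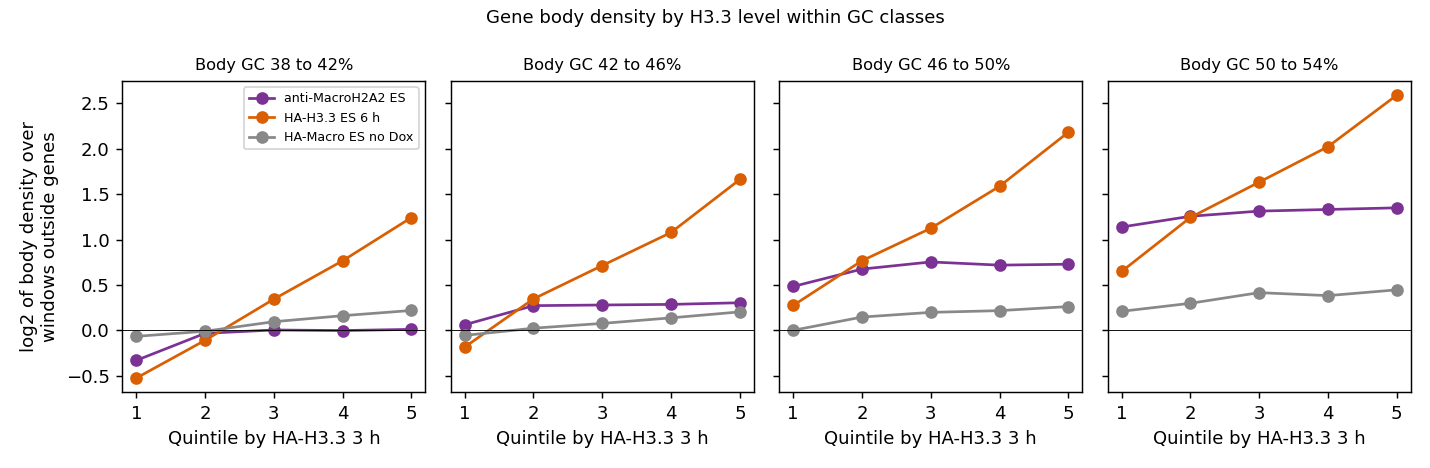
Body density (log2 over windows outside genes) by quintile of HA-H3.3 at 3 hours in the body, in 4 classes of body GC content, for the MacroH2A2, H3.3 6 hour and no-Dox libraries. H3.3 climbs to 2.18 in the last quintile at 46 to 50% GC, where MacroH2A2 stays at 0.73.

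Gene length and position within the gene also separated the variants. Genes of 9 to 20 kb had body densities of 0.68 for MacroH2A2 and 1.29 for H3.3, genes of 50 to 100 kb 0.34 and 0.94, and the 188 genes of over 500 kb 0.05 and 0.02. Along 4577 genes of at least 50 kb, cut into 10 equal segments, H3.3 was highest in the first segment, at 1.04, reached its minimum of 0.48 in the seventh and was 0.65 in the last. MacroH2A2 was 0.34 in the first segment, 0.14 in the third, and 0.39 in the last. These segments ran from the TSS to the TES without the trim of 2 kb, so the first one includes the downstream side of the promoter peak. In the second segment H3.3 was 0.59 and MacroH2A2 0.15, each below its own level in the last. The lean of H3.3 to the start of long genes was thus confined to the segment that holds the promoter.

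Of the bodies, 7827 held at least 200 midpoints in the libraries together. H3.3 was over 2-fold higher in 1148 of them, or 14.7%, and MacroH2A2 in 197, or 2.52%. At the H3.3 end, Tdh, a threonine dehydrogenase on which mouse ES cells depend (chr14:64111184-64127929), held 34 MacroH2A2 and 304 H3.3 midpoints, which is 2.67 and 23.8 per kb, a ratio of 8.94 (6.26 to 13.2). Ncl, nucleolin (chr1:88241294-88256030), held 24 and 213, a ratio of 8.88 (5.81 to 14.2). Etv5, an ETS family transcription factor (chr16:22381382-22439792), held 159 and 1029, a ratio of 6.47 (5.47 to 7.70). In these 3, MacroH2A2 lay below the no-Dox library, which held 45, 45 and 233 midpoints. H3.3 at 3 hours held 146 midpoints in Tdh, 105 in Ncl and 447 in Etv5 at the same depth, below its level at 6 hours and above MacroH2A2.

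The other bodies at this end were those of Mkrn1, a ubiquitin ligase (chr6:39347803-39370461), with 48 MacroH2A2 and 323 H3.3 midpoints, Tor3a, a torsin (chr1:158583748-158604487), with 65 and 432, and Ino80e, a subunit of the INO80 remodeller (chr7:133995094-134005891), with 31 and 202. Cep55, a protein of cell division (chr19:38129515-38148915), held 27 and 173. Apobec3, a cytidine deaminase (chr15:79722838-79741552), held 39 and 247. In these 5 the fold of H3.3 over MacroH2A2 ran from 6.33 to 6.73. Of the 8 bodies at this end, MacroH2A2 was below the no-Dox library in 6, and above it in Tor3a (65 against 56) and Ino80e (31 against 26). HA-Macro at 6 hours was above the no-Dox library in all of them but Ncl (36 against 45) and Mkrn1 (62 against 82). It held 105 against 56 in Tor3a, 63 against 40 in Apobec3 and 49 against 45 in Tdh. H3.3 at 3 hours was below H3.3 at 6 hours in all 8.

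At the MacroH2A2 end, Muc5b, a gel-forming mucin (chr7:149024975-149058990), held 225 MacroH2A2, 46 H3.3 and 137 no-Dox midpoints, a ratio of 4.89 (3.55 to 6.87). Its neighbour Muc5ac (chr7:148974877-149005136) held 163 and 48. Dok7, an adaptor of the neuromuscular junction (chr5:35399462-35430488), held 293 and 78, a ratio of 3.76 (2.92 to 4.89). H3.3 stood at 1.53 midpoints per kb in Muc5b, 1.83 in Muc5ac and 2.89 in Dok7, beside 2.52 outside genes. H3.3 at 3 hours, at the same depth, held more in the same bodies, with 163 midpoints in Muc5b, 111 in Muc5ac and 146 in Dok7, so the ratios rest on the 6 hour library that chose them. HA-Macro at 6 hours held 106 midpoints in Muc5b against 137 without Dox, 84 against 86 in Muc5ac and 127 against 120 in Dok7.

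Kcnt1, a sodium-activated potassium channel (chr2:25719315-25773793), held 523 MacroH2A2 and 146 H3.3 midpoints, a ratio of 3.58 (2.98 to 4.33). Lsp1, an actin-binding protein of leukocytes (chr7:149646714-149680772), held 256 and 70. Espnl (chr1:93218652-93244880) held 267 and 80. Col7a1, the collagen of anchoring fibrils in skin (chr9:108855631-108886920), held 289 and 89, which is 10.6 and 3.26 per kb. The 8 bodies at this end had 51.2% to 54.8% GC, and MacroH2A2 was above the no-Dox library in each. In each of the 8, H3.3 at 3 hours was above H3.3 at 6 hours and below MacroH2A2, for example 252 in Kcnt1 and 191 in Col7a1. HA-Macro at 6 hours was above the no-Dox library in 6 of the 8, all but Muc5b and Muc5ac, with 214 against 185 in Kcnt1 and 170 against 136 in Col7a1. Over the 4730 genes that passed both minimums, the log2 ratio in the body and that at the promoter had a Pearson r of 0.35.

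At gene ends, all libraries dipped at the TES, and MacroH2A2 stayed near its downstream level past it where H3.3 had a second rise. At 12292 protein-coding genes with no other TSS near the TES, MacroH2A2 reached 0.38 above the level from 2 to 4 kb downstream at 370 bp before the TES, and dropped to -0.23 at 110 bp after it. H3.3 had its minimum of -0.11 at 110 bp before the TES and its maximum of 0.27 at 290 bp after it. The no-Dox library also dipped at the TES, to -0.16, from a maximum of 0.19 at 430 bp before it. Within 600 bp of the TES the mean was 0.11 for MacroH2A2, 0.16 for H3.3 and 0.08 without Dox. H3.3 remained 1.05 above the level outside genes from 2 to 4 kb past the TES, and MacroH2A2 0.41.

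In GC-rich sequence far from promoters, coding exons held more midpoints of the anti-MacroH2A2 library than other windows of like GC content, by a larger step than for H3.3. Among 1 kb windows over 5 kb from any TSS and of 55 to 60% GC, the 7652 that overlapped a coding exon held 13.99 ± 6.06 MacroH2A2 and 11.1 ± 9.72 H3.3 midpoints (SD over windows). The 5810 windows in genes without a coding exon held 9.78 ± 5.92 and 10.8 ± 11.9. The 5440 windows outside genes held 8.68 ± 6.75 and 8.58 ± 11.2. The no-Dox library held 5.02, 4.51 and 4.59 in the same 3 classes. HA-Macro at 6 hours held 7.58, 6.84 and 6.81, a much smaller step than in the antibody library. H3.3 at 3 hours held 10.2, 8.73 and 6.93. Windows with 0 MacroH2A2 midpoints made up 0.157%, 4.87% and 10.8% of the classes, and the part of mappability was not tested. At 45 to 50% GC the classes held 4.70, 3.91 and 3.80 MacroH2A2 and 5.25, 4.60 and 3.58 H3.3 midpoints. At 40 to 45% GC they held 3.46, 3.12 and 2.98 MacroH2A2 and 4.01, 3.19 and 2.29 H3.3 midpoints, so that there the step from either other class to coding exons was larger for H3.3.

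The distal windows with the most MacroH2A2 and those with the most H3.3 at 6 hours overlapped in part. The 10000 windows with the most MacroH2A2 and the 10000 with the most H3.3, of 2085263, shared 610, which is 6.10% of each list, where a list is 0.480% of the windows. The overlap was 15.8% with H3.3 at 3 hours and 1.95% for lists of 2000 windows. The windows in both lists held 21.5 ± 7.88 MacroH2A2 and 37.1 ± 11.8 H3.3 midpoints. The 9390 in the MacroH2A2 list alone held 19.8 ± 5.01 and 8.59 ± 5.62, and the 9390 in the H3.3 list alone 5.24 ± 3.43 and 36.1 ± 10.7. All distal windows held 3.32 ± 2.74 and 3.06 ± 3.97. These levels were fixed by the choice of the windows, except that of the variant not used to choose: the H3.3-rich windows held 5.24 MacroH2A2 midpoints against 3.32 in all windows, and the MacroH2A2-rich windows 8.59 H3.3 midpoints against 3.06. At like GC content the first of these differences was nearly absent. The whole H3.3 list held 3.82 MacroH2A2 midpoints against 3.91 in all windows at 45 to 50% GC, and 6.00 against 6.19 at 50 to 55%. The whole MacroH2A2 list held 7.45 H3.3 midpoints against 4.12 at 45 to 50% GC, and 10.8 against 10.3 at 55 to 60%.

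The lists differed in what they overlapped. A coding exon was in 49.8% of the MacroH2A2 list, 17.5% of the H3.3 list and 6.29% of all distal windows. At 55 to 60% GC the shares were 62.0%, 36.8% and 40.5%, and at 50 to 55% GC 39.7%, 16.4% and 18.5%. At 45 to 50% GC they were 22.2%, 8.89% and 7.89%, and at 40 to 45% GC 6.82%, 8.10% and 5.16%. The MacroH2A2 list was thus above all windows in these 4 classes, and the H3.3 list was below them at 50 to 60% GC and above them at 40 to 50%. The mean GC content was 54.98% in the MacroH2A2 list, 51.0% in the H3.3 list and 41.5% in all windows. H3.3 at 3 hours held 16.1 midpoints in the H3.3 list and 10.4 in the MacroH2A2 list, at the same depth.

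The windows were also classed by libraries that chose neither list, first by H3.3 at 3 hours, which measures the same tagged protein as H3.3 at 6 hours. In the 355646 windows with 0 midpoints at 3 hours, MacroH2A2 held 1.75 ± 1.97 and H3.3 1.27 ± 1.68. In the 11478 windows with 11 to 15 they held 8.62 ± 6.78 and 20.04 ± 12.0. In the 287 with 26 or more they held 10.8 ± 8.55 and 63.1 ± 19.6. The 2708 windows with 16 to 25 lay between these, with 9.93 ± 8.32 and 37.4 ± 15.6. Over the upper 3 classes MacroH2A2 thus went from 8.62 to 10.8 while H3.3 went from 20.04 to 63.1. Classing by libraries of macroH2A, added after seeing the data, gave another picture. By HA-Macro at 6 hours, the 22468 windows with 11 to 15 held 7.60 ± 5.58 MacroH2A2 and 9.38 ± 8.97 H3.3, and the 546 with 26 or more 16.9 ± 13.97 and 11.6 ± 8.96. By anti-MacroH2A2 in embryonic fibroblasts, the 31306 windows with 11 to 15 held 7.45 ± 5.23 and 5.30 ± 6.12, and the 528 with 26 or more 23.9 ± 13.7 and 10.98 ± 11.1. Which variant climbed more across the upper classes thus followed the library used to class the windows.

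Short motifs were counted in the windows on both strands. The AP-1 motif TGACTCA was in 21.1% of the H3.3 list, 14.5% of the MacroH2A2 list and 14.9% of all 2085263 distal windows. The sequence TCAAGGTCA, which the nuclear receptor ESRRB binds, was in 4.62%, 2.47% and 2.11%. The E-box CACGTG was in 15.9%, 20.5% and 9.37%, and CCACACCC, a KLF factor site, in 16.8%, 14.5% and 5.71%. The octamer ATTTGCAT, bound by POU factors, was in 6.88%, 2.96% and 8.65%. Shares of short sequences move with GC content, and the lists differ in it.

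Of the distal windows, 16288 held at least 30 midpoints in the libraries together. H3.3 was over 2-fold higher in 10715, or 65.8%, and MacroH2A2 in 1210, or 7.43%. Of these windows 6900 reached 30 on H3.3 alone and 501 on MacroH2A2 alone, so the minimum itself shapes this split and nothing is read from it. The H3.3 end held windows with no MacroH2A2 midpoint: one 30410 bp from the TSS of 1110012J17Rik (chr17:66829001-66830000, outside genes) had 76 H3.3 midpoints and 4 without Dox, at least 25.3-fold over the floor (exact lower limit 20.1). Another, within Map4k4, a kinase of stress signalling, and off its coding exons (chr1:39980001-39981000), had 70, at least 23.3-fold (exact lower limit 18.5). The others lay near Ppp2r5c, outside genes (chr12:111656001-111657000), with 67, and in Dlgap1 (chr17:71097001-71098000), with 65. These 4 windows were chosen for high H3.3 at 6 hours and low MacroH2A2, and at 3 hours H3.3 held 23.7, 38.2, 35.6 and 15.8 midpoints in them, in the same order. HA-Macro at 6 hours held 4, 4, 7 and 4 midpoints, against 4, 2, 3 and 3 without Dox.

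At the MacroH2A2 end, a window over a coding exon of Itgb3, an integrin of platelets (chr11:104520001-104521000), held 30 MacroH2A2 and 0 H3.3 midpoints, at least 10-fold over the floor (exact lower limit 7.64), with 10 without Dox and 9.22 for H3.3 at 3 hours. A window in Camta1, a calmodulin-binding transcription activator (chr4:150650001-150651000), held 39 and 1, a ratio of 39 (6.60 to 1579), and 96 in the anti-MacroH2A2 library of embryonic fibroblasts. HA-Macro at 6 hours held no more than the no-Dox library in both, with 10 against 10 at Itgb3 and 5 against 5 at Camta1. Windows over coding exons of Nfatc2, a factor of T cell activation (chr2:168330001-168331000), and Col8a2, a collagen of the cornea (chr4:125988001-125989000), held 36 and 35 against 1 each. H3.3 at 3 hours held 5.27 in the Camta1 window, 15.8 in the Nfatc2 window and 5.27 in the Col8a2 window. HA-Macro at 6 hours held 14 in the Nfatc2 and 7 in the Col8a2 window, against 6 and 4 without Dox. The windows highest in both were 2 adjacent ones outside genes, 50324 and 49324 bp from the TSS of Csrnp3 (chr2:65633001-65634000 and chr2:65634001-65635000), with 72 and 57 MacroH2A2 and 67 H3.3 midpoints each. They were followed by a window outside genes near H2-M10.4 (chr17:36621001-36622000), with 65 and 56, and one within Synj2, off its coding exons (chr17:5949001-5950000), with 56 and 44. In the Csrnp3 windows HA-Macro at 6 hours held 44 and 51 midpoints, and in the Synj2 window 44, against 12, 11 and 5 without Dox. The H2-M10.4 window, which has no CpG dinucleotide, held 4 for HA-Macro, against 1 without Dox and 73.8 for H3.3 at 3 hours.

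The sequences of the most different windows in each direction and of the most shared one are shown because they stand at the ends of the distal ratio and at its shared level. Each is the 300 bases at the centre of its window, plus strand, mm9, with CpG dinucleotides in capitals.
H3.3 window near 1110012J17Rik, chr17:66829351-66829650: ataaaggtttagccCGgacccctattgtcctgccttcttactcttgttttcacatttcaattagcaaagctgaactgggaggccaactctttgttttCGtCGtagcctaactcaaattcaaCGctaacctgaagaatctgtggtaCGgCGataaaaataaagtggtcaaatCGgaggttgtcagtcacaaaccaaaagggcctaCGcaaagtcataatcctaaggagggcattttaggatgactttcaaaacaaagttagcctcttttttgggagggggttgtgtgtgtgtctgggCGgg
H3.3 window in Map4k4, chr1:39980351-39980650: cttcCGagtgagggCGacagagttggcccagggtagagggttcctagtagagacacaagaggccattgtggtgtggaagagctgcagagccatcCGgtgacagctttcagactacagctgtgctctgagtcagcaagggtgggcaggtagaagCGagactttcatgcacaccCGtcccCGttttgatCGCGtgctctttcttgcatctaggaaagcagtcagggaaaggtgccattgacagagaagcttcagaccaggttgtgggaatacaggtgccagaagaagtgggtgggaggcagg
MacroH2A2 window in Itgb3, chr11:104520351-104520650: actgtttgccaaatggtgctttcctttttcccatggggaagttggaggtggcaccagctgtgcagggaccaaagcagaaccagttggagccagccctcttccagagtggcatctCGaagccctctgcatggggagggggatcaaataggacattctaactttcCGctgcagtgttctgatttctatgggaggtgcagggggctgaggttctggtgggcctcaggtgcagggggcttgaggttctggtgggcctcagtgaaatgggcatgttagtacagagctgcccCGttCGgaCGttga
MacroH2A2 window in Camta1, chr4:150650351-150650650: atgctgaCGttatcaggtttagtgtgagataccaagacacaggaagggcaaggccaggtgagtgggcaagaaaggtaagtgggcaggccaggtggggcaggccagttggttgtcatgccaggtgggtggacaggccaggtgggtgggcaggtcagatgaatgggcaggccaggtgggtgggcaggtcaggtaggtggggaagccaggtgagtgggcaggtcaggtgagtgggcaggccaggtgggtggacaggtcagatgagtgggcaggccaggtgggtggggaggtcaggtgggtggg
Shared window near Csrnp3, chr2:65633351-65633650: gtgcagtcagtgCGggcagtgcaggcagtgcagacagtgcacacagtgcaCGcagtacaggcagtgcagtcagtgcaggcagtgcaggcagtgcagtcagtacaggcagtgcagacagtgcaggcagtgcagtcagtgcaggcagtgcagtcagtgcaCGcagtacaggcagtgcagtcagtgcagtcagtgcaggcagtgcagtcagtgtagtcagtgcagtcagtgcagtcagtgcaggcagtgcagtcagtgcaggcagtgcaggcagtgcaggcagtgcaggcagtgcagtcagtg
The H3.3 windows have 9 and 8 CpG dinucleotides in these bases, and 44.3% and 55.3% GC. The Itgb3 window has 5 CpG and 56.0% GC, and the Camta1 window 1 CpG and 62.7% GC. Over the whole 1 kb the H3.3 windows have 29 and 17 CpG dinucleotides and the MacroH2A2 windows 22 and 3, and the shared window has 7. The Camta1 window repeats a short unit and holds caggt 16 times, and the window near Csrnp3 holds cagtg 30 times. Per the methods, reads that fit several places were put at 1 of them at random.

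Gene families separated along the same axis as single promoters. Each list is described by the medians over all of its promoters, beside the 8 MacroH2A2, 15 H3.3 and 5 no-Dox midpoints that were the medians over all 20806 protein-coding promoters, and by the log2 ratio of its summed MacroH2A2 over its summed H3.3, which was -0.99 over all promoters. Of the 26 lists, 5 had more MacroH2A2 than H3.3 in sum, and 16 when the ratio was centred on its median of -1.22 over the promoters tested. That centring turned 11 lists from below to above 0: cytosolic and mitochondrial ribosomal proteins, the proteasome, protocadherins, cytochrome P450, serpins, collagens, developmental transcription factors, and fibroblast, imprinted and long neuronal genes. With H3.3 at 3 hours, the ratios of all 26 lists moved and 2 of them changed sign, while those of defensins and of the fibroblast and mesenchymal genes stayed within their counting intervals. Below, the direction of the lists is given at equal totals and for H3.3 at 6 hours. Counts of members past 2-fold describe only the promoters or bodies that passed the minimum, many of them through the higher library alone.

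The replication-dependent histone genes, which encode the canonical histones made in S phase, had the lowest ratio. Their 67 promoters had medians of 4 MacroH2A2, 26 H3.3 and 8 no-Dox midpoints, and a log2 ratio of -2.75 (-2.94 to -2.57). MacroH2A2 in the antibody library was thus below the median promoter where H3.3 was above it. HA-Macro at 6 hours had a median of 9 midpoints at these promoters, beside 6 over all promoters, so it was not low there. Of the 67, 33 passed the minimum of 30, with H3.3 over 2-fold higher in 33, beside 58.7% of all promoters tested. The lowest was Hist2h2bb (chr3:96073644-96082924), with 2 against 53 midpoints, and the highest among those that passed was Hist1h1e, with 10 against 24. The copies of these genes are alike, and reads may be shared between them.

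Genes of basic cell functions had ratios from -1.42 to -1.08, with median H3.3 of 17 to 25 midpoints beside 15 over all protein-coding promoters, and median MacroH2A2 of 8 to 12 beside 8. Cytosolic ribosomal protein genes (75) had 8 and 17 with -1.15 (-1.29 to -1.02), mitochondrial ones (75) 10 and 18 with -1.16, the respiratory chain (76) 8.5 and 19.5 with -1.29, and the proteasome (40) 9 and 19 with -1.08. Translation initiation factors (55) had 12 and 25 with -1.27, and splicing factors (46) 9 and 21.5 with -1.42. Among them, Eif5a held 2 against 56 midpoints. Psmb11, the proteasome subunit of the thymus cortex, went the other way with 32 against 10. The 344 Zfp genes, which encode zinc finger proteins, had medians of 7 MacroH2A2 and 20 H3.3, and a ratio of -1.48 (-1.54 to -1.42). Zfp316 among them held 30 against 11.

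Pluripotency genes, which keep ES cells undifferentiated, had medians of 11 MacroH2A2 and 27 H3.3 over 28 promoters, with a ratio of -1.47 (-1.67 to -1.28). Nanog held 4 against 32 midpoints, Sox2 9 against 43 and Tdgf1 2 against 27, while Pou5f1 held 23 against 46 and Klf2 28 against 22. Their bodies stood further apart, with 3.70 MacroH2A2 and 11.2 H3.3 midpoints per kb over 15 genes, against 3.70 and 4.00 over all bodies. Mybl2, a MYB family factor of the cell cycle, held 100 against 602 midpoints in its body, and Esrrb 792 against 1991. Of the 10 bodies that passed the minimum, H3.3 was over 2-fold higher in 10, beside 14.7% of all bodies tested.

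Genes for histone variants and their chaperones, for Polycomb proteins and for the immediate early response were high in H3.3 too. The 25 promoters of macroH2A, H3.3 and chaperone genes had medians of 11 MacroH2A2 and 32 H3.3, with -1.63 (-1.83 to -1.44), and Chaf1a, a subunit of the CAF-1 chaperone, held 4 against 32. The 27 Polycomb genes had 14 and 28, with -1.23, and bodies with 3.80 and 8.29 per kb. Mtf2, a PRC2 partner, held 99 against 503 midpoints in its body. The 25 immediate early genes had 14 and 29, with -1.26, and Jun held 8 against 44.

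**Figure D4:**
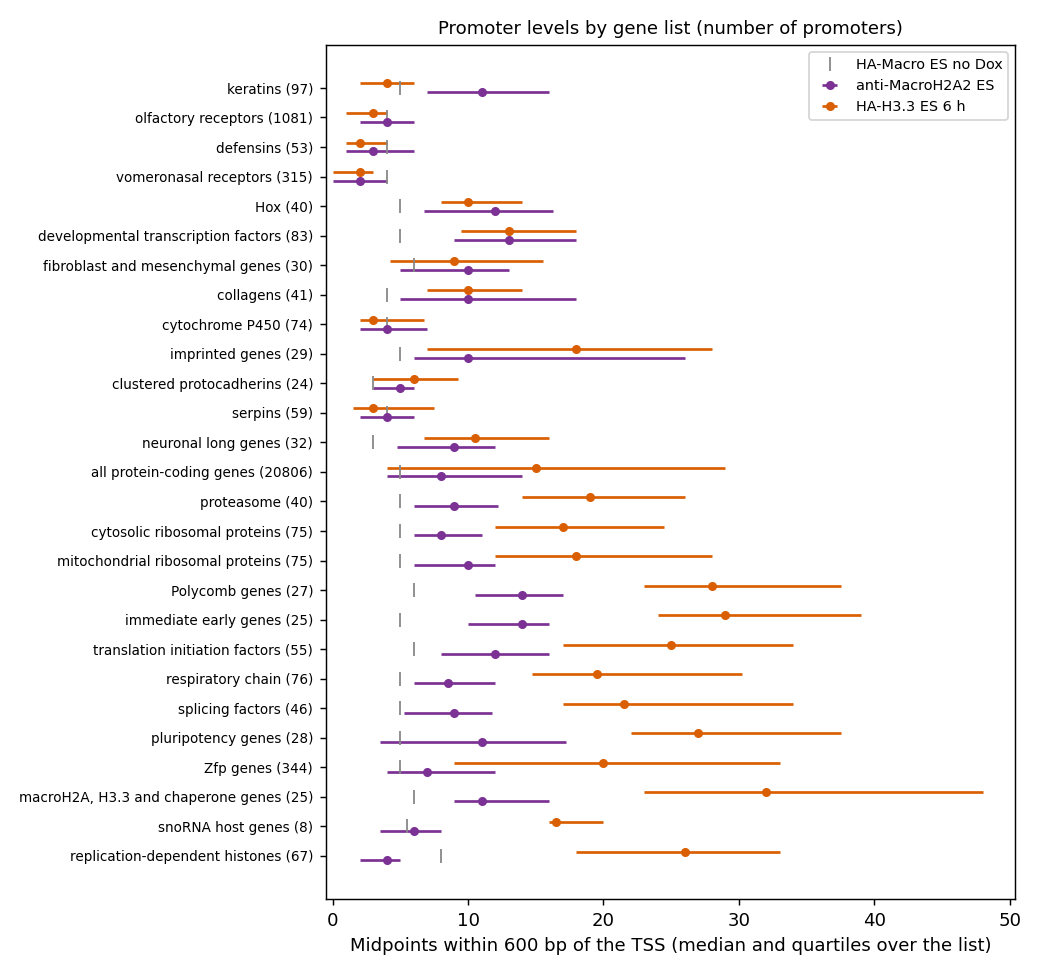
Median and quartiles of midpoints within 600 bp of the TSS over the promoters of each gene list (number of promoters in brackets), ordered by summed MacroH2A2 over H3.3. Keratins (medians 11 and 4) stand at the MacroH2A2 end and replication-dependent histones (4 and 26) at the H3.3 end.

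At the opposite end stood keratin genes, which encode the filament and matrix proteins of skin and hair. Their 97 promoters, keratin-associated proteins included, had medians of 11 MacroH2A2, 4 H3.3 and 5 no-Dox midpoints, and a ratio of 1.17 (1.02 to 1.32). HA-Macro at 6 hours had a median of 5 at these promoters, beside 6 over all promoters, so it was not high there. Of the 97, 16 passed the minimum, with MacroH2A2 over 2-fold higher in 12, beside 2.04% of all promoters tested, and H3.3 in 3. Krt8, a keratin of simple epithelia, was the lowest with 2 against 32 midpoints, and Krt222 held 7 against 36. The list thus held promoters at both ends.

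Olfactory receptor genes (1081 promoters) had medians of 4 MacroH2A2, 3 H3.3 and 4 no-Dox midpoints, with a ratio of 0.65 (0.58 to 0.72). Vomeronasal receptor genes (315) had 2, 2 and 4, with 0.36 (0.21 to 0.51), and defensins (53) 3, 2 and 4, with 0.42 (0.11 to 0.74). The excess of MacroH2A2 over H3.3 in these lists was thus at levels at or below those of the no-Dox library. Windows outside genes also held more MacroH2A2 than H3.3 at equal totals, with 3.08 against 2.52 midpoints per kb. With H3.3 at 3 hours the ratios were 0.17 for olfactory and 0.016 for vomeronasal receptors, both below the intervals given. They are also multigene families, in which reads may be shared between copies. The no-Dox level may not be comparable there, since the libraries differed in which windows were empty. In the 238489 distal windows with 0 midpoints in the fibroblast anti-MacroH2A2 library, 50.3% held 0 MacroH2A2 and 54.9% held 0 H3.3. The no-Dox library held 2.75 midpoints on average in these windows, beside 3.22 in all distal windows. The reason was not tested. Cytochrome P450 genes (74) and serpins (59) had the same medians of 4 and 3, but ratios of -0.40 and -0.65, since a few of their promoters held much H3.3, such as Cyp4f13 with 1 against 37 and Serping1 with 4 against 34.

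Genes for development had ratios near 0 against H3.3 at 6 hours and higher ones against H3.3 at 3 hours. The 40 Hox promoters, the factors that pattern the body axis, had medians of 12 MacroH2A2, 10 H3.3 and 5 no-Dox midpoints, with a ratio of 0.19 (0.00086 to 0.38). Hoxd9 held 30 against 13. Other developmental transcription factors (83) had 13, 13 and 5, with -0.05 (-0.17 to 0.07). Neurod2, a factor of neurons, held 29 against 6, and Pitx1, a factor of hindlimb and pituitary, 33 against 8. MacroH2A2 in both lists was above its median over all promoters and H3.3 below its own. With H3.3 at 3 hours the ratio was 0.52 for Hox and 0.18 for the developmental factors.

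Collagen and fibroblast genes had promoter ratios a little below 0 and more MacroH2A2 than H3.3 along their bodies in sum. Windows outside genes also held more MacroH2A2 than H3.3 at equal totals, with 3.08 against 2.52 midpoints per kb. All bodies together held 3.70 against 4.00, a log2 ratio of -0.11. The 41 collagen promoters had medians of 10 and 10, with a ratio of -0.19 (-0.37 to -0.01), which was 0.08 with H3.3 at 3 hours. Their bodies held 4.37 MacroH2A2, 2.96 H3.3 and 3.298 no-Dox midpoints per kb over 40 genes, and MacroH2A2 was over 2-fold higher in 11 of the 36 that passed the minimum, beside 2.52% of all bodies tested. Col1a1, the main collagen of bone and skin, held 152 against 48 midpoints in its body, and Col18a1, a collagen of basement membranes, 644 against 1390. Fibroblast and mesenchymal genes (30) had promoter medians of 10 and 9, with -0.15 (-0.38 to 0.07). Their 22 bodies held 3.84 MacroH2A2, 3.00 H3.3 and 3.304 no-Dox midpoints per kb, a log2 ratio of 0.35, and of the 13 that passed the minimum MacroH2A2 was over 2-fold higher in 2 and H3.3 in 1. That 1 was Fn1, fibronectin, the lowest of the list, with 13 against 48 at its promoter and 231 against 538 in its body.

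Long neuronal genes held more H3.3 than MacroH2A2 at the promoter in sum, and less along the body. Their 32 promoters had medians of 9 MacroH2A2 and 10.5 H3.3, with a ratio of -0.74 (-0.96 to -0.51), which was -0.09 with H3.3 at 3 hours, while 29 bodies held 2.85 and 2.16 midpoints per kb, a log2 ratio of 0.40. The no-Dox library held 3.09 per kb there. Windows outside genes went the same way at equal totals, with 3.08 MacroH2A2 against 2.52 H3.3 midpoints per kb. Nrxn3, a neurexin of synapses, held 4721 against 2959 midpoints and Csmd1 4498 against 2861. Clustered protocadherins (24) had promoter medians of 5 and 6, with -0.62. Imprinted genes (29) had 10 and 18, with -0.52 (-0.70 to -0.35): Zrsr1 held 26 against 113 midpoints and Sgce 43 against 24. The 8 snoRNA host genes had 6 and 16.5, with -1.64 (-2.13 to -1.18).

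Over large tiles the variants followed each other, and more so the larger the tile. The Pearson r of MacroH2A2 with H3.3 was 0.28 over 1 kb tiles, 0.51 over 10 kb, 0.68 over 100 kb and 0.86 over 1 Mb. Over the same sizes H3.3 at 6 hours with H3.3 at 3 hours gave 0.62, 0.85, 0.94 and 0.97, and MacroH2A2 with H3.3 at 3 hours gave 0.37, 0.68, 0.83 and 0.94. These are descriptions over tiles that share depth, base composition and mappability. Counting error is larger in small tiles, with medians of 3 midpoints of each variant in the 1 kb tiles and 320 MacroH2A2 and 247 H3.3 in the 100 kb tiles.

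Over 23669 tiles of 100 kb, MacroH2A2 followed GC content with an r of 0.82 and the number of protein-coding TSSs with 0.37, and H3.3 did so with 0.66 and 0.50. The no-Dox library had 0.37 with GC content. The r of MacroH2A2 with anti-HA HA-Macro at 6 hours was 0.79, and that of H3.3 with it 0.84. MacroH2A2 in ES cells had 0.74 with MacroH2A2 in embryonic fibroblasts, and H3.3 had 0.34. The order of these values across libraries describes 1 library each.

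The ratio of the variants went along with gene number. Tiles without a protein-coding TSS (13385 tiles) held medians of 290.0 MacroH2A2, 204 H3.3 and 314 no-Dox midpoints. Tiles with 5 to 8 TSSs (645) held 491, 711 and 366, and those with over 8 (58) 672, 1094 and 396. The median log2 ratio of MacroH2A2 over H3.3 went from 0.49 to -0.41 and -0.70 over these classes, and its r with TSS number was -0.41 over the 23437 tiles with at least 100 midpoints. At like GC content of 46 to 50%, the 885 tiles without a TSS held medians of 488 MacroH2A2 and 391 H3.3, and the 833 tiles with 3 or more held 528 and 768. MacroH2A2 thus changed little with genes at that GC content, and H3.3 went up.

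**Figure D5:**
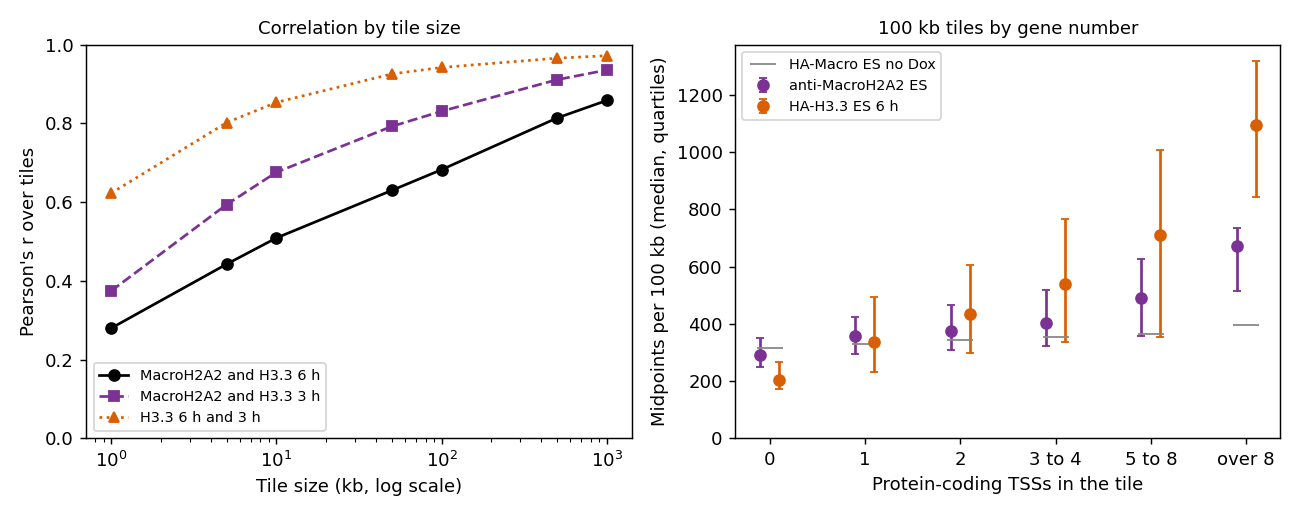
Pearson's r between libraries by tile size in kb on a log scale (left), and midpoints per 100 kb tile (median and quartiles) by number of protein-coding TSSs for MacroH2A2, H3.3 and the no-Dox library (right). MacroH2A2 and H3.3 go from an r of 0.28 at 1 kb to 0.86 at 1 Mb, and H3.3 passes MacroH2A2 in tiles with 2 or more TSSs.

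MacroH2A2 was over 1.5-fold above H3.3 in 6241 of the 23437 tiles, or 26.6%, and H3.3 above MacroH2A2 in 2822, or 12.0%. The median log2 ratio over these tiles was 0.36 at equal totals, so the limit lay nearer to the median tile on the MacroH2A2 side. Which side has more tiles thus depends on the common total. Most of these tiles did not form long blocks: the median run of adjacent tiles was 1 in either direction, and the longest was 15 tiles in either. The longest MacroH2A2 run (chr14:71200001-72700000) held 301 MacroH2A2, 166 H3.3 and 158 no-Dox midpoints per tile, beside medians of 321, 248 and 323 over all tiles. MacroH2A2 was thus not above its median there, while H3.3 and the no-Dox library were both below theirs. The reason for the low level in both was not tested. This run held the TSS of 1 protein-coding gene, Gfra2, a receptor for neurturin. The longest H3.3 run (chr4:132200001-133700000) held 545, 1230 and 376, with 40 protein-coding TSSs, among them Arid1a, a subunit of the BAF remodeller, Hmgn2, Nudc, Wdtc1 and Lin28a.

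The tiles at the H3.3 end each overlapped 1 or 2 protein-coding genes. They overlapped Schip1 (chr3:68300001-68400000), with 175 MacroH2A2 and 846 H3.3 midpoints, a log2 ratio of -2.27 (-2.52 to -2.04), Akap12, a kinase anchor (chr10:6000001-6100000), with 313 and 1406, Etl4 (chr2:20500001-20600000), with 273 and 1222, and Pitpnc1 (chr11:107200001-107300000), with 344 and 1532. The fifth, over Ncoa3 and Sulf2 (chr2:165800001-165900000), held 330 and 1453. MacroH2A2 in these tiles was 175 to 344, beside a median of 321 over all tiles, and the no-Dox library was 330 to 349. HA-Macro at 6 hours held 374 to 504 there and was above the no-Dox library in each of these tiles.

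At the MacroH2A2 end, a tile in Glis1, a zinc finger factor (chr4:107200001-107300000), held 693 MacroH2A2, 243 H3.3 and 331 no-Dox midpoints, a log2 ratio of 1.51 (1.30 to 1.73). H3.3 at 3 hours held 476 there and HA-Macro at 6 hours 328. In another, over Gm17421 and Gm11029 (chr12:114600001-114700000), the numbers were 361, 115 and 273. The rest held less MacroH2A2 than no-Dox signal: near Gm16387 (chr7:46400001-46500000) 130, 37 and 351, in Emr1 (chr17:57500001-57600000) 214, 68 and 265, and over Gm3629 and Gm8356 (chr14:7300001-7400000) 80, 28 and 409. Of the 5, MacroH2A2 was above the no-Dox library in 2. HA-Macro at 6 hours was below the no-Dox library in all 5, for example 244 against 273 over Gm17421 and Gm11029 and 313 against 409 over Gm3629 and Gm8356.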

How the data were processed

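Of the 11 libraries, 6 were used: anti-MacroH2A2 and HA-H3.3 at 6 hours in ES cells, with HA-H3.3 at 3 hours, HA-Macro without Dox and at 6 hours, and anti-MacroH2A2 in embryonic fibroblasts as further values. The other 5 were not used here. The deposited files hold coordinates of mapped, extended intervals, with no counts or scores. Per the methods, the authors collapsed identical reads while keeping their number, mapped them to mm9 with Bowtie (version 1.0 in the submitters' processing notes) with at most 1 mismatch, put reads with several locations at 1 of them at random, and extended each towards its 3′ end. The methods give an extension of 150 bp, but the H3.3 and anti-MacroH2A2 files hold 400 bp intervals and the HA-Macro files 150 bp ones.

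Interval midpoints on chromosomes 1 to 19 were counted in Python 3.11.15 with numpy 2.4.6, pandas 2.3.3 and scipy 1.17.1, and larger libraries were thinned to 8322155 intervals. HA-H3.3 at 3 hours, which is smaller, was scaled up to that total. Genes were those of GENCODE vM1. Of 24731 tiles of 100 kb, the 246 with the top 1% of no-Dox signal were discarded with their genes, leaving 33686 of 34653 genes and 20806 of 21418 protein-coding ones. Single ratios have exact 95% intervals, and against 0 a floor of 3 counts in that library was used. Reads without molecular identifiers are not independent molecules, and intervals and floors cover counting error only. Single promoters, windows and bodies needed 30, 30 and 200 midpoints in the libraries together, and 1 read was added to each side for calls.

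The named genes were the 10 highest and 10 lowest promoters by ratio and the 10 with the highest smaller number, the 8 highest and 8 lowest bodies, 4 distal windows of each kind, 5 tiles at each end, and the ends of each list, passing over a gene within 5 kb of one already named, besides the fixed cell type markers. Some genes that this rule picks are not reported here. Other list members named were chosen after their values were seen. The members, lists and rules were chosen with earlier results of these data known. The scripts were tested on simulated data. The alternatives were distinct intervals, H3.3 at 3 hours, coverage, scaling to library size without thinning, no discarded tile, and other sizes, minimums and centrings.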

Additional observations from a re-analysis of the deposited data

How the results depend on the processing

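Each group has 1 library, so none could be left out. No paired analysis was possible because each group has 1 library. The alternative with H3.3 at 3 hours was run at the lower depth of that library with the same minimums, so its counts differ in depth as well as time. With H3.3 at 3 hours, the excess of H3.3 over MacroH2A2 at the TSS was 0.23 (0.52 at 6 hours), that in gene bodies 0.18 (0.41), the overlap of distal lists 15.8% (6.10%), the promoters higher in MacroH2A2 81 (189) and in H3.3 826 (5445), the tile r 0.83 (0.68), and the r of the tile ratio with gene number -0.24 (-0.41). All 26 lists then moved: collagens (0.081) and developmental factors (0.18) changed sign, and long neuronal genes went from -0.74 to -0.09, vomeronasal receptors from 0.36 to 0.016, olfactory receptors from 0.65 to 0.17 and Zfp genes from -1.48 to -0.77. The TSS excess was 0.58 for protein-coding genes, 0.50 with no tile discarded and 0.49 with no other TSS within 2 kb, the last chosen after seeing the data. The body excess was 0.33 in bodies of at least 50 kb. The distal overlap was 1.95% for 2000 windows and 7.05% over 20 kb from a TSS. Promoters higher in MacroH2A2 numbered 309 with 1000 bp on either side, 123 with 5 reads added and 1 with at least 60 midpoints, where 1486 were higher in H3.3. The tile r was 0.86 in 1 Mb tiles, where that with gene number was -0.54, 0.72 with no tile discarded, 0.58 divided by no Dox and 0.81 on log2 reads.

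Centring on the median gave 1417 and 1340 promoters and 16 lists above 0 (5). It turned positive cytosolic (0.070) and mitochondrial (0.059) ribosomal proteins, the proteasome (0.14), protocadherins (0.61), cytochrome P450 (0.82), serpins (0.57), collagens (1.03), developmental factors (1.17), fibroblast (1.07), imprinted (0.70) and neuronal (0.49) genes. It subtracts a median of -1.22. The cause of the other changes was not tested. Distinct intervals and scaling to library size without thinning turned no list. At a median of 3 midpoints in a 1 kb tile, single windows are limited by counting error.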
